A study of Mus musculus with 2 samples.

Results

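The genes described here are small nucleolar RNAs (snoRNAs), small Cajal body RNAs and small nuclear RNAs of sorted mouse retinal bipolar cells. They were taken by symbol, as rows of the deposited table named Snord, Snora, Scarna or Rnu with a number, and were selected on their values: a row was kept where it was above 0 in at least 1 of 2 libraries. This gave 60 members of 135 rows with such names, out of 32813 gene symbols in all. Since being above 0 was the rule, the members' own levels are a description and carry no test. The series has 1 group, type 5 bipolar cells of the Htr3a-GFP line, in which a green fluorescent protein follows the promoter of the serotonin receptor gene Htr3a. Retinas were dissociated and the cells were sorted by fluorescence, with 2 biological replicates of total RNA, called replicate 1 and replicate 2. The sources used here give neither the age and sex of the mice nor whether a library pooled animals. There is no other cell population in the series, so a value is a level in the sorted cells.

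snoRNAs are short RNAs of the nucleolus that guide chemical marks onto ribosomal RNA. Box C/D RNAs (Snord) lead the methyltransferase fibrillarin to a base whose ribose is methylated, and box H/ACA RNAs (Snora) lead the enzyme dyskerin to a uridine that becomes pseudouridine. Small Cajal body RNAs (Scarna) guide the same marks on the small nuclear RNAs, which form the core of the spliceosome. Most mammalian snoRNAs have no promoter of their own and are cut out of introns of a longer host transcript, often that of a ribosomal protein or of a noncoding host gene, whereas small nuclear RNAs are made from their own promoters.

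The sequences below belong to the members whose values carry the results, read from GENCODE M21 transcripts on GRCm38 (mm10) and printed 5′ to 3′ with T for U. In box C/D RNAs the capitals mark TGATGA, the C box core, within the first 20 bases and CTGA, the D box, within the last 20. In box H/ACA RNAs they mark ACA placed 3 bases before the end. The C/D members are Snord72 at chr15:5118404-5118484 (plus strand), Snord65 at chr11:62604515-62604586 (plus) and Snord104 at chr11:106500993-106501062 (plus), and the H/ACA members are Snora31 at chr14:75847905-75848034 (plus) and Snora33 at chr10:23785347-23785475 (minus).
Snord72: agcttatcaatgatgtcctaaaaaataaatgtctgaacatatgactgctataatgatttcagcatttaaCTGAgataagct
Snord65: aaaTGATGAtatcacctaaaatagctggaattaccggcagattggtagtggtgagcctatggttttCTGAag
Snord104: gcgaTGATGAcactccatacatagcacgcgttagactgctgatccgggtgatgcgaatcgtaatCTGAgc
Snora31: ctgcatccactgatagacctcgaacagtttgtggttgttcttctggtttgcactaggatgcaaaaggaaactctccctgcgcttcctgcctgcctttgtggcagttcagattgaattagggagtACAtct
Snora33: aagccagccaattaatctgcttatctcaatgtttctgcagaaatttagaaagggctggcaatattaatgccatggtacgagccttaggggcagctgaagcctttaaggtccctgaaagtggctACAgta

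Searched on the transcript strand alone, TGATGA and CTGA in these windows were held by 21 of 31 box C/D members (67.7%), by 26 of 45 box C/D rows at 0 (57.8%) and by 0 of 1327 miRNA hairpin genes. ACA 3 bases before the end was held by 14 of 20 box H/ACA members (70%), by 15 of 18 H/ACA rows at 0 (83.3%) and by 1.88% of the hairpins. A row whose end is annotated a base longer or whose C box differs is not counted, as for Snord72 above.

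The members took a small part of the RNA measured. In transcripts-per-million units (TPM), which are per length, they summed to 890.2 in replicate 1 and 474.9 in replicate 2, or 0.089% and 0.0475% of the column. Snord72 alone made up 23.9% of the members' sum in replicate 1. The median member stood at 1.76 on the log2(TPM + 1) scale, averaged over the libraries, against 3.22 for the 19968 genes above 0 in either library. In bulk RNA, fewer cells with an RNA and less of it per cell cannot be told apart. The members are 64 to 414 bases long, and how well the library preparation keeps RNAs this short was not tested. A low value is thus not shown to be a low amount in the cell.

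Few members were found in both libraries. Of the 60, 20 were above 0 in both, 16 in replicate 1 only and 24 in replicate 2 only, so 33.3% were shared, against 80.3% of all genes above 0 in either library. At 1 TPM or more in both libraries stood 18 members, beside 67.6% of all those genes, and at 10 TPM or more in both stood 9, beside 41.3%. Other single-exon genes of up to 300 bases lay between, with 493 of 1087 (45.4%) above 0 in both. Among these, snoRNA genes with other names had 66 of 266 in both (24.8%) and miRNA genes 310 of 474 (65.4%).

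**Figure D1:**
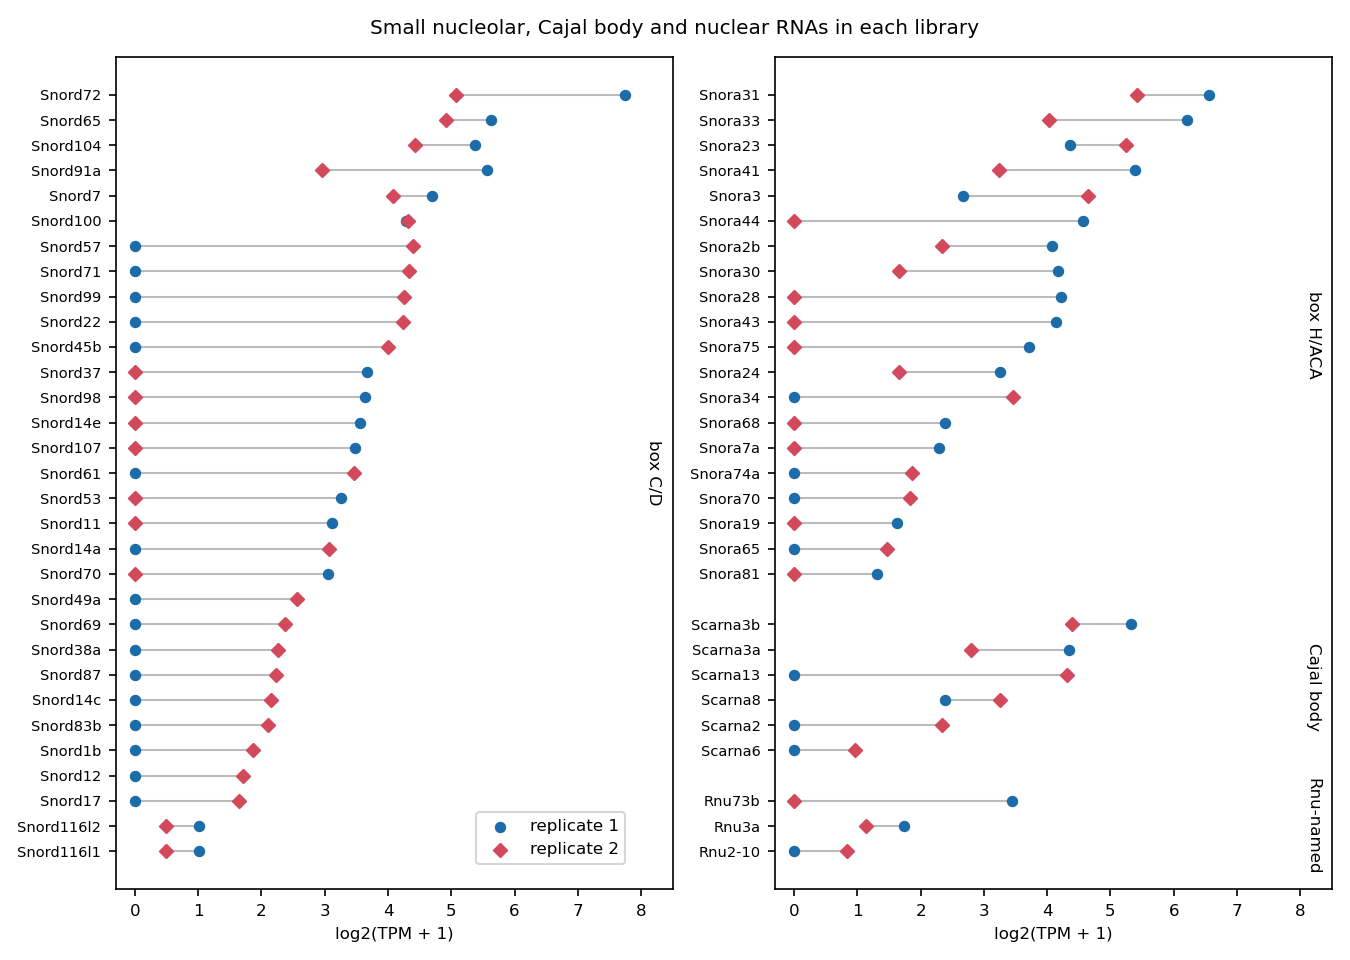
Level of each of the 60 members in replicate 1 (circles) and replicate 2 (diamonds) on the log2(TPM + 1) scale, by class and ordered by mean TPM. 40 members have a point at 0 in 1 library, while the highest members of the box C/D, box H/ACA and Cajal body classes are above 0 in both.

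By class, the members were 31 of 76 box C/D rows (40.8%), 20 of 38 box H/ACA rows (52.6%), 6 of 9 Cajal body rows (66.7%) and 3 of 12 rows with Rnu names (25%). Above 0 in both libraries were 8 C/D, 8 H/ACA, 3 Cajal body and 1 Rnu member. Among these 20, 16 were higher in replicate 1 and 4 in replicate 2. The same share over all genes was not counted, so the split is not read as a trait of the members. All genes above 0 in both libraries leaned to replicate 1 too, with a median difference (replicate 2 minus replicate 1) of -0.22 log2 units. The smallest step of a value, described below, is worth more TPM in replicate 1 than in replicate 2.

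The values of such short genes move in steps. Where a program counts whole reads, the smallest value that a gene of a given length can take is what 1 read is worth, and higher values are multiples of it. A program that shares a read among several genes can also give fractions of this. The step was estimated on single-exon genes of up to 300 bases that are not members. In both libraries it was best described as a constant divided by the gene length less 27 bases, with the constant at 434 in replicate 1 and 223 in replicate 2. A gene of 70 bases, the size of a box C/D RNA, then moves by 10.09 TPM in replicate 1 and 5.19 in replicate 2, and one of 130 bases, the size of an H/ACA RNA, by 4.21 and 2.17 TPM. In replicate 2 a constant of 112 described the other genes almost as well (score 0.538 against 0.539), but 143 of their values lay within 0.1 of 1 step and 6 within 0.05 of 0.5 steps. The authors' annotation release was not known, so the lengths are those of GENCODE M21. That a step is 1 read was not tested on reads.

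Members' values fell on these steps although they took no part in the estimate. Of the members' values between 0.5 and 10 steps, 23 of 28 in replicate 1 (82.1%) and 30 of 37 in replicate 2 (81.1%) lay within 0.1 of a whole number, where values spread evenly would give 20%. For the other short genes, on which the step was estimated, the shares were 420 of 609 (69%) and 375 of 553 (67.8%). Of 58 members with 1 locus, 24 were at 0 in replicate 1, 13 lay between 0.5 and 1.5 steps, and 5 reached 9.5 steps or more. In replicate 2 the numbers were 15, 14 and 5. Apart from both Snord116 genes, every value above 0 of a member with 1 locus was at least 0.51 steps. A count at 1 TPM therefore does little more than count values above 0, and 58 of 60 members reached 1 TPM in a library.

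**Figure D2:**
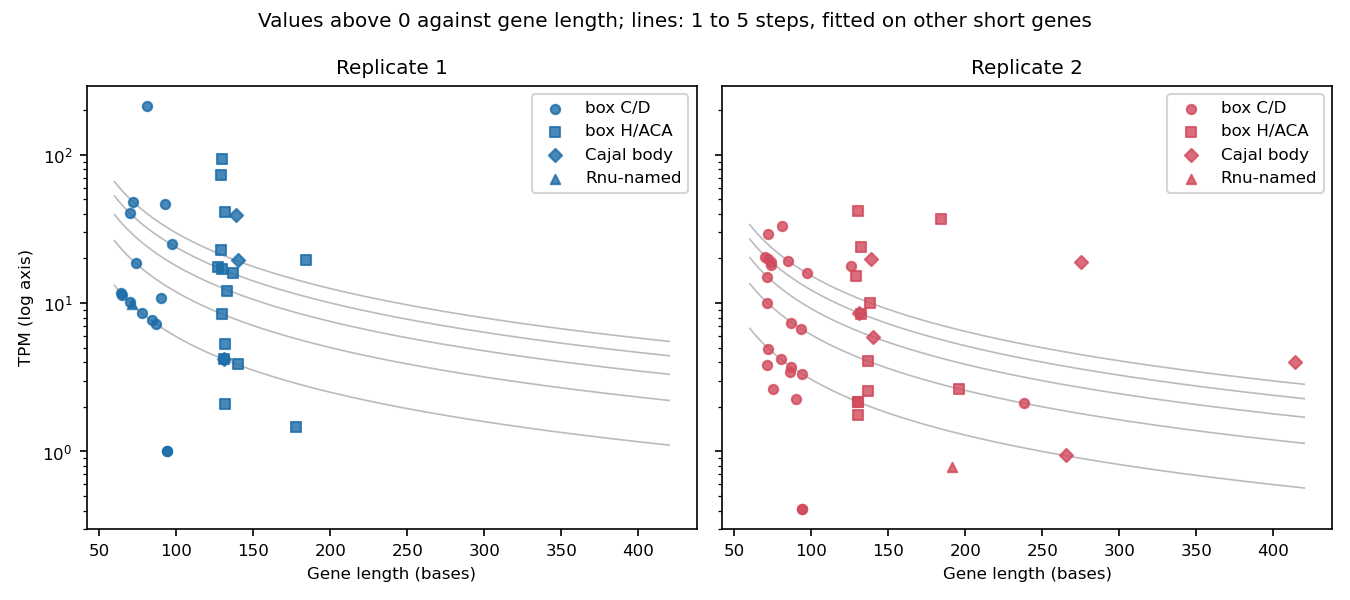
TPM of members above 0 (log axis) against gene length in bases in replicate 1 and replicate 2, with marks by class and lines for 1 to 5 steps as estimated on other short genes. Many members lie on a line, from 1 step upwards, and the lines of replicate 2 are lower than those of replicate 1.

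**Figure D3:**
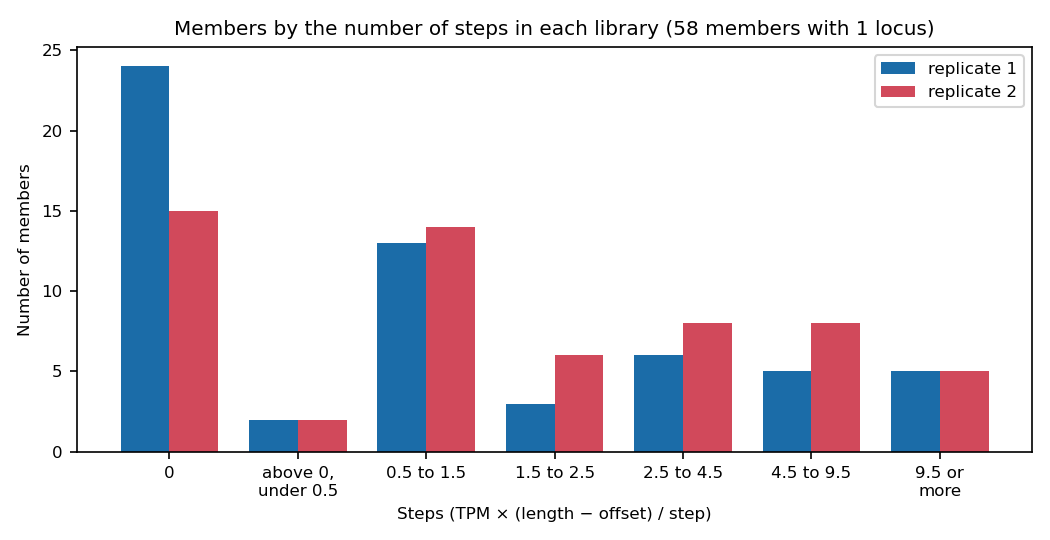
Number of members in bins of steps in each library, over the 58 members with 1 locus. Of these, 24 were at 0 in replicate 1 and 15 in replicate 2, and 5 in each library were at 9.5 steps or more.

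Where a member lies in its host went with how its values fell on the steps. Of members in an intron or with no host, 34 of 36 values between 0.5 and 10 steps (94.4%) were whole, within 0.1. Of members within or overlapping an annotated exon of the host, 19 of 29 were (65.5%). The grouping was made after the values were seen and has no test, and what splits a value was not tested.

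Among box C/D members, Snord72 was the highest, while the class had a lower median level (1.73 on the log2(TPM + 1) scale) than box H/ACA (2.09) and Cajal body RNAs (2.49). These medians also depend on gene length, through the step, and on zeros. Above 0 in both libraries were 8 of 31, 8 of 20 and 3 of 6 members, in that order. The medians are thus no ranking of amounts. Snord72, which lies in an intron of Rpl37, a ribosomal protein gene, had 212.65 TPM in replicate 1 and 32.85 in replicate 2, or 26.46 and 7.95 steps. It was the highest member in replicate 1, and its mean of 122.75 ± 127 TPM (SD, n = 2) shows a spread as large as the level. Snord65, in an intron of the noncoding gene 2410006H16Rik, had 48.35 and 29.31 TPM, and Snord104, with no same-strand host in the annotation, had 40.46 and 20.58 TPM. For these RNAs the libraries were close in steps, 5.01 and 5.91 for Snord65 and 4.01 and 3.97 for Snord104. Snord91a, in an intron of Tsr1, a ribosome maturation gene, had 46.31 and 6.73 TPM, or 7.04 and 1.99 steps. Snord7 had 24.96 and 15.87 TPM. Snord100, in Rps12, had 18.53 and 18.84 TPM, the smallest difference of any of the 20 members above 0 in both libraries, yet it rests on 2.01 and 3.97 steps.

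The other C/D members were above 0 in 1 library only, apart from both Snord116 genes. Those of replicate 2 reached 19.94 TPM for Snord57 in Nop56, 19.13 for Snord71 in Ap1g1, 18.11 for Snord99 in Snhg12, 17.8 for Snord22 in Snhg1 and 15.09 for Snord45b in Rabggtb. Snord22 (U22), one of the few snoRNAs that serve in cutting the ribosomal RNA precursor, had the most steps of these, 7.9. At 2.12 to 10.06 TPM in replicate 2 stood Snord61, Snord14a, Snord49a, Snord69, Snord38a, Snord87, Snord14c, Snord83b, Snord1b, Snord12 and Snord17. Replicate 1 alone had Snord37 at 11.73 TPM, Snord98 at 11.43, Snord14e at 10.75, Snord107 at 10.11, Snord53 at 8.54, Snord11 at 7.65 and Snord70 at 7.27. All of these except Snord14e lay at 1 step, within 0.1, so their order by TPM is that of their lengths, from 64 bases for Snord37 to 87 for Snord70.

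Copies of U14 in the heat shock gene Hspa8 show how values are shared or not between close sequences. U14 (Snord14) takes part in early cuts of the ribosomal RNA precursor. Snord14c and Snord14d differ little, with 84 of 86 aligned bases identical (97.7%), and Snord14e is more distant (79.6% to each). In that order they lie at chr9:40803583-40803668, chr9:40803995-40804080 and chr9:40804748-40804837 on the plus strand.
Snord14c: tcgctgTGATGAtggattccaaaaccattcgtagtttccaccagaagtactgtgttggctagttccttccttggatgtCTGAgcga
Snord14d: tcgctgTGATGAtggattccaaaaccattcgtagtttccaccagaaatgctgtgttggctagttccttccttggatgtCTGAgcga
Snord14e: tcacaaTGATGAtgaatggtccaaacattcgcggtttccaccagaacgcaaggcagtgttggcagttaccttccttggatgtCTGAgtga

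Snord14e had 10.75 TPM in replicate 1 and 0 in replicate 2, Snord14c had 0 and 3.45, and Snord14d was listed at 0 in both. None of the U14 copies was above 0 in both libraries, although Hspa8 stood at 884.3 and 1089.45 TPM. Snord14a, the copy in Rps13, had 0 and 7.4 TPM.

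Snord116 and Snord107 lie in the imprinted region of chromosome 7 whose human counterpart is lost in Prader-Willi syndrome. Snord116l1 at chr7:59894620-59894713 and Snord116l2 at chr7:59876933-59877026 (minus strand) are identical over all 94 bases, and the sequence of both is given once.
Snord116l1: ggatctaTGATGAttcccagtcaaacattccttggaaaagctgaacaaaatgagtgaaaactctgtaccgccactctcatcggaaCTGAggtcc

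Each had 1.01 TPM in replicate 1 and 0.41 in replicate 2, the same value for both genes, or 0.16 and 0.12 of a step. The annotation holds 69 further genes of at least 95% identity to each, of which 54 had a row and 23 were above 0, and their rows summed to 26.14 TPM in replicate 1 and 24.4 in replicate 2. Whether the copies' rows share reads was not tested. Snord107 had 10.11 TPM in replicate 1, or 1 step, and 0 in replicate 2, and Snord64 of the same region was listed at 0 in both. The gene Snrpn, which encodes a Sm protein and lies in that region, stood at 194.07 and 188.22 TPM. Rian and Meg3, noncoding genes of the imprinted region on chromosome 12 in which the Snord113 and Snord114 arrays lie, stood at 264.77 and 262.47 TPM and at 366.49 and 372.49 TPM. None of the 135 name-matched rows, at 0 or above, is named Snord113, Snord114 or Snord115, so these arrays could not be looked at under those names.

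Among box H/ACA members, Snora31 was the highest. It lies in an intron of Tpt1, a gene of translation and growth, and had 93.52 and 41.56 TPM, or 22.19 and 19.2 steps, which is the largest sum of steps over both libraries of any member. Snora33, in Rps12, had 72.97 and 15.28 TPM, and Snora41, in an intron of the elongation factor gene Eef1b2, had 41.03 and 8.48 TPM. Both were higher in replicate 1. Snora23, in an intron of the nuclear import gene Ipo7, and Snora3, in Rpl27a, ran the other way, with 19.56 and 36.94 TPM and with 5.34 and 24.06 TPM. Snora44, in Snhg12, had 22.78 TPM in replicate 1 and 0 in replicate 2.

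Of the other H/ACA members, Snora2b had 15.93 and 4.05 TPM, Snora30 had 17 and 2.16, and Snora24 had 8.5 and 2.16. Snora24 and Snora30 are both 130 bases long and show the steps plainly, since both had 2.16 TPM in replicate 2 (1 step) and the value of Snora30 in replicate 1 was 4.03 steps against 2.02. Above 0 in replicate 1 alone were Snora28 at 17.51 TPM, Snora43 at 16.56, Snora75, which lies in the nucleolin gene Ncl, at 12.14, Snora68 at 4.21, Snora7a at 3.88, Snora19 at 2.09 and Snora81 at 1.47. Above 0 in replicate 2 alone were Snora34 at 10.03 TPM, Snora74a at 2.64, Snora70 at 2.56 and Snora65 at 1.77. Snora19 and Snora81 lay at 0.51 steps each.

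Near-identical copies, of at least 95% identity, were annotated for 14 of 60 members, and their rows bear on the values of a few. The 1 copy of Snora19 had the same values as Snora19, 2.09 and 0 TPM. Snora3 has 1 copy, with 8.5 and 6.49 TPM. Snora68 and its 1 copy were above 0 in different libraries, Snora68 at 4.21 and 0 TPM and the copy at 0 and 6.36. Snora65, at 0 in replicate 1, has 3 copies, of which 2 were above 0 there and summed to 12.88 TPM. The rows of Snora68 and Snora65 taken with their copies were thus above 0 in both libraries.

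All members of the Cajal body class were above 0 in replicate 2 and 3 of 6 in replicate 1. Scarna3b, in an intron of Dcaf5, had 39.11 and 19.89 TPM, or 10.09 and 9.99 steps, and Scarna3a, in an intron of Cop1, a ubiquitin ligase gene, had 19.38 and 5.91 TPM. Scarna8, in an intron of Haus6, had 4.21 and 8.57 TPM. Scarna13, in an intron of the noncoding gene Snhg10, had 0 TPM in replicate 1 and 18.91 in replicate 2, which is 21.03 steps at its length of 275 bases. Scarna2, which has no same-strand host and is 414 bases long, had 0 and 4.04 TPM, or 7.01 steps, and Scarna6, in Atg16l1, had 0 and 0.94 TPM, or 1 step. For Scarna13 and Scarna2 a library at 0 stands against a library with many steps. Scarna3a at chr1:159340283-159340422 (plus) and Scarna3b at chr12:80391613-80391751 (minus) share 120 of 140 aligned positions (85.7%), and are shown because their sequences are alike and both were above 0 in both libraries.
Scarna3a: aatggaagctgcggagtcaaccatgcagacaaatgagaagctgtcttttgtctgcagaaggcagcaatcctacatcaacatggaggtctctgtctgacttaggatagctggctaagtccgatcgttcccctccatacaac
Scarna3b: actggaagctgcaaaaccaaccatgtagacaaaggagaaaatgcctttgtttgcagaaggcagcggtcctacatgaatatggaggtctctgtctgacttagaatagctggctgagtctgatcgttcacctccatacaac

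Few rows of small nuclear RNAs were above 0, and under other names they numbered 189 of 1344 (14.1%). Of the 3 members with Rnu names, Rnu73b is a box C/D RNA in an intron of the ribosomal protein gene Rps3a1 and had 9.89 TPM in replicate 1, or 1 step, and 0 in replicate 2. Rnu3a encodes U3, the box C/D RNA at the first cuts of the ribosomal RNA precursor, and had 2.35 and 1.19 TPM. It has 2 loci in the annotation, so no steps were counted. Rnu2-10, a gene of the spliceosomal U2 RNA, had 0 and 0.79 TPM, or 0.58 steps.

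Rows at 0 in both libraries included Rnu1a1, Rnu1b1, Rnu1b2 and Rnu1b6 of U1, Rnu5g of U5, Rnu6 of U6, Rnu11 and Rnu12 of the minor spliceosome and Rnu7 of histone RNA processing. Snord118 (U8), Snora73a and Snora73b, which serve in cutting the ribosomal RNA precursor, were at 0 as well, and so was Snord13 (U13), the guide of a cytidine acetylation in ribosomal RNA. Rows of near-identical genes with other names were looked at beside them. Rnu1a1 had 23 such copies, all listed at 0. Rnu6 had 201 with a row, of which 11 were above 0 and summed to 118.02 and 47.73 TPM. Rnu2-10 had 12, of which 7 were above 0, with 16.06 and 8.73 TPM in all. Of 3 near-identical copies of Rnu12, Gm24525 was above 0, at 42.41 TPM in replicate 1 and 64.89 in replicate 2. Gm24525 was named after its values were seen. The submitters' notes name RSEM, which can split a read that matches several copies into fractions among them. Its settings were not known and the sharing was not tested, so a row of a multi-copy RNA is uncertain in either direction. Other short noncoding RNAs with their own promoters had unlike values. Rn7sk, the RNA of the 7SK particle that holds back transcription elongation, stood at 236.9 and 229.34 TPM, Rny1 at 25.79 and 10.47 and Rpph1, the RNA of ribonuclease P, at 18.05 and 5.34, while Rmrp, Terc, Rny3 and Vaultrc5 were listed at 0 in both.

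The difference between the libraries was larger for the members than for genes at large. A difference of over 4-fold on the log2(TPM + 1) scale was seen for 35 of 60 members (58.3%), against 10.5% of all genes above 0 in either library. Among the other short single-exon genes it was seen for 485 of 1087 (44.6%). By kind, these were 39.5% of 474 miRNA, 45.1% of 266 snoRNA, 56.6% of 189 small nuclear RNA and 71.4% of 7 small Cajal body RNA genes. The members' share is thus not particular to them. Higher in replicate 1 were 19 members, beside 6.23% of all genes, and higher in replicate 2 were 16, beside 4.3%. A library listed at 0 was part of 30 of the 35. The other 5 were Snord72 (log2 difference, replicate 2 minus replicate 1, of -2.66), Snord91a (-2.61), Snora30 (-2.51), Snora33 (-2.18) and Snora41 (-2.15), all higher in replicate 1. With 1 group of 2 libraries these differences have no replicate check. The rule that set the members used the same values, and 1 step against 0 passes this line for a gene of 130 bases in replicate 1 and for a gene of 70 bases in either library.

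Among the 17 members with about 5 steps or more in a library, 10 differed by over 4-fold. Besides Snord72, Snord91a, Snora33 and Snora41 these were 6 members with a library at 0. They were Snora44, higher in replicate 1, and Scarna13, Scarna2, Snord71, Snord22 and Snora34, higher in replicate 2. The cut of 5 steps was chosen after seeing the data and uses the higher library, which favours large differences. It was not applied to other genes, so the 10 of 17 has no share to stand beside it. The median difference over all 60 members was -0.56 log2 units and over the 20 members above 0 in both libraries -0.94, against -0.20 and -0.22 for all genes taken the same way. Summed over the 58 members with 1 locus, the steps came to 156.7 in replicate 1 and 192.7 in replicate 2.

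The genes that hold the members were abundant and, unlike the members, were not used by the rule. A same-strand host was annotated for 55 members, 41 in protein-coding genes and 14 in others, and the position was an intron for 29, an annotated exon of some host transcript for 25 and a partial overlap for 1. Hosts with a row in the table numbered 43 and held 49 members, 12 of them in 11 ribosomal protein genes. Of these hosts, 42 of 43 were above 1 TPM (limma, adjusted p under 0.05), against 55.5% of the 19968 genes tested. In both libraries 40 were at 10 TPM or more. Their median was 109 TPM, against 9.67 for all genes above 0 in either library. Hosts of name-matched rows at 0 were abundant too, with a median of 80.2 TPM over 51 genes, and 12 hosts held both a member and a row at 0. The 39 hosts of rows at 0 only had a median of 72.5 TPM, and 34 of them were above 1 TPM in the same fit. Ribosomal protein genes held 32 of the named rows, of which 20 were at 0.

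Among the members kept by the rule, levels did not follow those of their hosts. Over 49 pairs, Pearson's r was -0.20 and Spearman's rho -0.10 on the log2(TPM + 1) scale averaged over the libraries, given as a description, since members share hosts and libraries. Without the pairs of Rps12, r was -0.01. The pairs leave out the 62 rows at 0 whose host has a row, and most members rest on a few steps, which limits what these values can show. Gas5, a noncoding gene of many box C/D RNAs, was the most abundant of the noncoding hosts at 1109.72 and 1212.48 TPM, yet Snord47 in it was listed at 0 in both libraries. Hspa8 at 884.3 and 1089.45 TPM held 2 members, neither above 11 TPM in a library. Snhg12 at 302.9 and 140.59 TPM held Snora44, seen in replicate 1 alone, and Snord99, seen in replicate 2 alone.

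The exception was Rps12, the host not above the 1 TPM line. This ribosomal protein gene had 0 TPM in replicate 1 and 0.82 in replicate 2. Both RNAs it holds were well above it, Snora33 at 72.97 and 15.28 TPM and Snord100 at 18.53 and 18.84 TPM, and both lie within an annotated exon of some Rps12 transcript. Reads of a host transcript and of an RNA inside it can be counted for either, and whether this moved the value of Rps12 was not tested. Snora23 exceeded its host Ipo7 as well (14.1 and 27.51 TPM), so 3 members were above their host in both libraries, and Snord65, Snord91a, Scarna3b and Scarna8 were above it in 1.

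**Figure D4:**
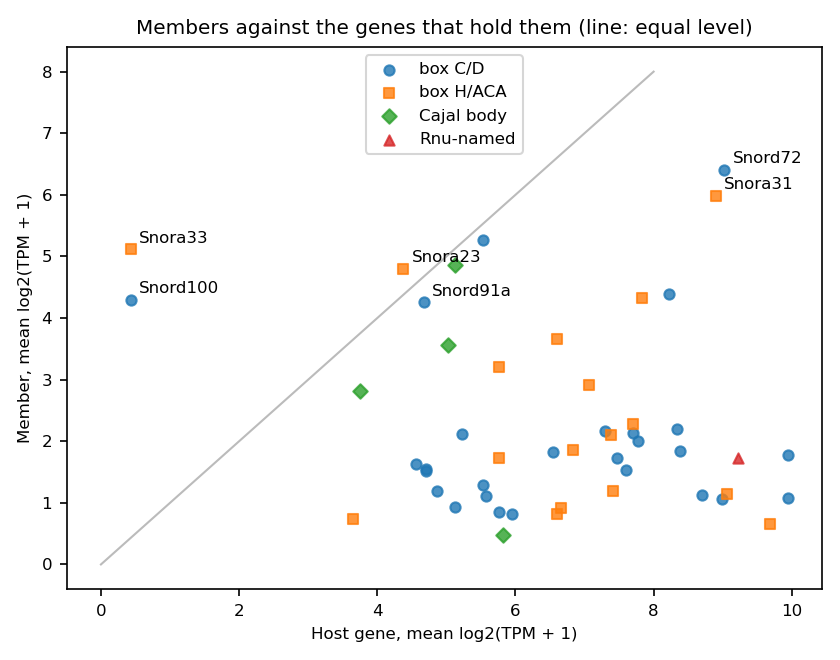
Level of 49 members against the level of the gene that holds them, each as the mean log2(TPM + 1) of both libraries, with a line of equal level. Most members lie below the line, and Snora33 and Snord100 stand at the left, where their host Rps12 is near 0.

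Genes of the proteins that bind and build these RNAs were broadly expressed as RNA, and protein was not measured. Of 122 genes of small RNA-protein particles with a row, 108 were above 1 TPM (limma, adjusted p under 0.05), against 55.5% of the 19968 genes tested. The median of the 122 was 30.4 TPM. In this fit a gene's variance came from the trend with abundance, so genes whose libraries disagree can pass.

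All of the 11 box C/D genes with a row passed. Nop56, a core protein that is also the host of Snord57, had 365.2 and 286.88 TPM, Nhp2l1, which binds the kink-turn of the RNA, 64.01 and 72.04, and Fbl, the methyltransferase fibrillarin, 34.63 and 57.57. Nop58, the other core protein and host of Snord11 and Snord70, had 34.3 and 18.34 TPM, and the lowest, Pih1d1 of the assembly machinery, 13.35 and 16.86. Of 6 box H/ACA genes 4 passed, with Gar1 at 45.63 and 94.35 TPM, the dyskerin gene Dkc1 at 73.58 and 44.83 and Nop10 at 38.21 and 52.62. The assembly factors Naf1, at 2.52 and 3.47 TPM, and Shq1, at 0 and 2.39, did not.

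Of 10 genes on the Cajal body list 6 passed, a share near that of all genes tested, and the list's median was 8.7 TPM. The highest on the list were Cct5 at 111.63 and 108.02 TPM, Zc3h8 at 25.88 and 25.26, and Usp1 at 16.34 and 26.15. Cct5 encodes a subunit of the chaperonin that folds the Wrap53 protein. Usp1 encodes a deubiquitinase of DNA repair and is not a known Cajal body gene, yet it counts among the 6 and in the median. It also counts among the 108 of 122 genes given above. Coil, which encodes coilin, the structural protein of the body, had 8.93 and 7.72 TPM and passed, and it is named outside the rule. Wrap53, whose protein brings Cajal body RNAs there, had 4.65 and 0.23 TPM, and Lsm10, of the U7 particle, 7.32 and 0, and neither passed. Of 9 genes of the SMN complex, which loads Sm rings onto small nuclear RNAs, 8 passed, led by Strap at 61.77 and 40.43 TPM. Gemin4 was among the 8 at 78.37 and 0.59 TPM, a case in which the libraries disagree.

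Most protein genes of the major spliceosomal particles passed. All 14 Sm and Lsm ring genes passed, led by Snrpn, Snrpg at 167.02 and 151.97 TPM and Snrpd2 at 87.6 and 124.98. Of 22 proteins specific to U1, U2, U4, U5 and U6, 20 passed, led by the U1 protein gene Snrnp70 at 328.82 and 363.62 TPM and the U5 protein gene Prpf8 at 153.07 and 84.68. Sf3b4 and Sf3a2 of U2 did not pass, at 3.49 and 7.59 TPM and at 2.92 and 1.94. Of 8 minor spliceosome genes 5 passed, a share near the 55.5% of all genes tested, with Zcrb1 at 441.66 and 298.71 TPM and Rnpc3 at 170.37 and 182.38. Zrsr2 passed at 1056.52 and 15.17 TPM, and its libraries disagree. Snrnp35 (3.15 and 0.21 TPM), Snrnp25 and Pdcd7 did not pass.

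Of 22 genes that transcribe, trim, cap or export small nuclear RNAs, 20 passed, led by Snapc4 at 180.52 and 78.61 TPM and Ints10 at 175.96 and 62.96, with Snapc2 and Ints5 not passing. All 8 genes of the 7SK and U6 particles and of small RNA enzymes passed, with Ssb, the La protein gene, highest at 241.2 and 222.95 TPM. All 12 genes of the U3 particle and ribosomal RNA modification passed, from Emg1 at 160.49 and 128.02 TPM down to Imp4 at 15.56 and 5.78. All 13 noncoding host genes with a row passed, of 22 on the list.

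**Figure D5:**
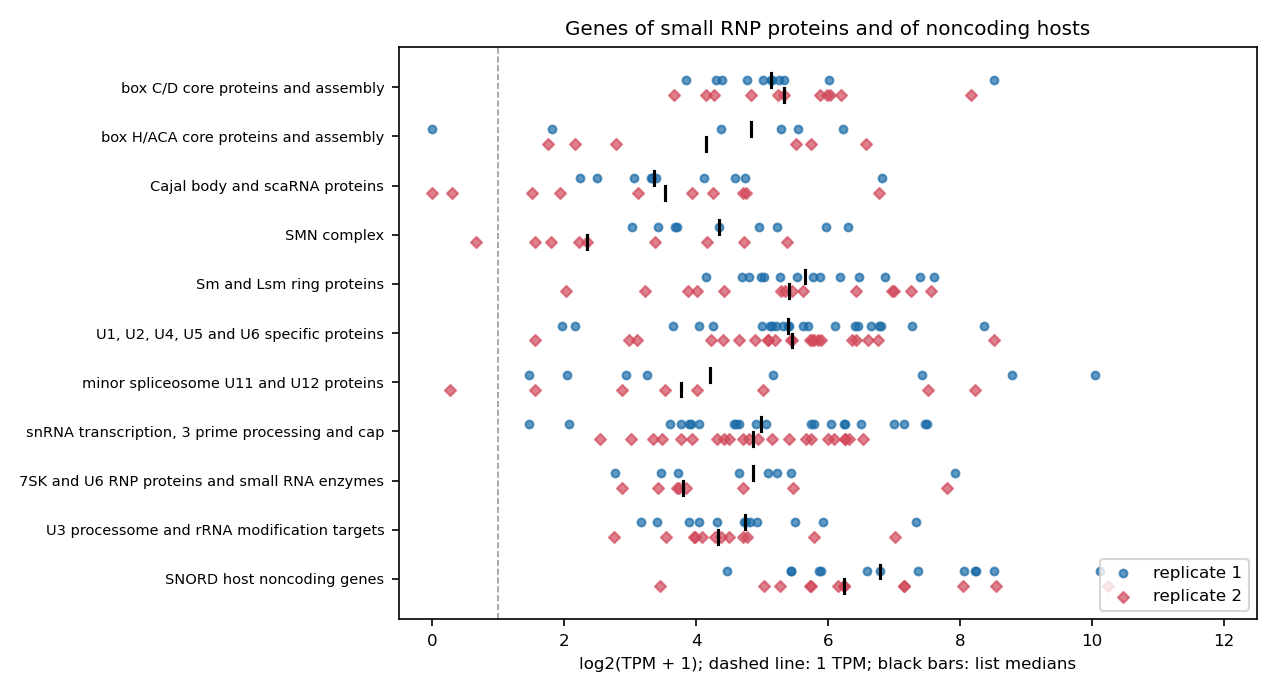
Level of each gene on the lists of small RNA-protein particle genes and of noncoding host genes, in replicate 1 (circles) and replicate 2 (diamonds), on the log2(TPM + 1) scale, with list medians as black bars and a dashed line at 1 TPM. Cajal body, SMN complex and minor spliceosome genes have the lowest medians, and noncoding host genes the highest.

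As a check of the label, all 5 type 5 markers (Htr3a, Kcng4, Cdh9, Sox6 and Lrrtm1), all 4 ON bipolar and all 4 general bipolar markers were at 10 TPM or more in both libraries, though Htr3a is the gene of the sort. Rod photoreceptor markers were also there, 4 of 8 at 10 TPM or more in both, with a sum of 1291.8 TPM in replicate 1 and 1279.4 in replicate 2. Muller glia markers summed to 175.2 and 337.2 TPM, with Vim at 0.2 and 118.83. The 5 amacrine markers summed to 59.3 and 80.5 TPM, the 4 ganglion markers to 31.6 and 72.8 and the 4 microglia markers to 3.2 and 15.1. Single markers differed between the libraries. Tfap2b had 0.33 and 20.44 TPM, Gad1 0.06 and 10.43 and Aif1 0 and 12.95, while Slc6a9 ran the other way at 36.55 and 3.12. Chat, Nefm and Sncg were listed at 0 in both. Which cells the members' RNA came from was not tested.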

How the data were processed

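RNA was amplified with the Ovation RNA-seq system V2, per the labels. The values are TPM as deposited by the authors. TopHat2 2.0.10, RSEM 1.2.28 and mm10 are the tools and build in the submitters' processing notes. Annotation, filters and use of strand are not stated, so host or antisense reads may count for a member. The file misspells Htr3a in the replicate 1 header. TPM keeps no depth, so no counting interval is given, and the steps in the report stand in for it. Columns sum to 999999.75 and 999999.66 TPM, with 17.3% and 24.6% mitochondrial.

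All 135 symbols were matched to GENCODE M21 (GRCm38), 3 of them at 2 loci. Hosts are same-strand genes that span the RNA, matched by symbol or RefSeq synonym, and copies were found with blastn 2.17.0 (95% identity over 90% of the length). The step came from a grid search. limma 3.58.1 (R 4.3.3) tested levels above 1 TPM on log2(TPM + 1), pseudocount 1, one-sided, over 19968 genes, with Benjamini-Hochberg adjustment at 0.05. Both were tested on simulated data. Python 3.11.15, numpy 2.4.6, pandas 2.3.3, biopython 1.88 and matplotlib 3.10.9 were used.

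Members, lists and rules were chosen with earlier results of these data known. Named genes are the 6 highest members of each class, all Scarna, Rnu and imprinted members, the 5 largest differences each way at a mean of at least 10 TPM, the 3 highest and 2 lowest genes of each protein list, and their hosts, not all of which are printed. Other members were named after their values were seen, to account for all.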

Additional observations from a re-analysis of the deposited data

How the results depend on the processing

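Of 40 alternatives over 9 results, 27 left the value within its spread or within 1.5 times of the count, 13 moved it and 0 turned a direction. Only the median difference between the libraries had a direction that could be labelled as turned. The summed TPM was 890.2 or 474.9 with a library left out, against a mean of 682.5. That lies within the spread by construction, so the tally is no measure of how stable the results are. The number of members was 20 where a value above 0 in both libraries was asked for, and 36 to 44 with a library left out. At 1 TPM or more stood 36 to 40 members with a library left out, since a single library then decides, and 9 at a line of 10 TPM in both. The median level was 0.08 with a pseudocount of 0.1, where zeros weigh more, and 2.13 to 2.33 with a library left out. The number of members that differed by over 4-fold was 35 to 46 with another pseudocount, filter or scaling. It was 30 of 46 members with no near-identical copy and 10 of 17 members with about 5 steps or more, settings that were both chosen after seeing the data and take fewer members. Rescaling without mitochondrial genes and members shifted the difference of all genes by 0.13 log2 units and gave 40. Member against host levels had r of -0.27 with a pseudocount of 0.1, of -0.17 to -0.15 with a library left out and of -0.01 without Rps12, chosen after seeing the data. Counts of host genes above the line ran from 39 to 42 and of protein genes from 72, at 10 TPM, to 121. Without replicate 1 or 2, no test was made, as 1 library leaves no spread. No paired analysis was possible because the series has 1 group. TPM keeps no depth. Most members rest on a few steps, so a member at 0 was not detected and is not shown to be absent.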
